A study of Mus musculus with 6 samples.

Results

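Cerulein pancreatitis was compared with the unchallenged mouse pancreas in 6 single-cell libraries. The 2 libraries of run 3, prepared 9 days after cerulein, were set against the 4 libraries of runs 1 and 2, with EYFP status as a covariate. Of 8582 deposited barcodes, 4809 were kept, 1601 of them from pancreatitis and 3208 from homeostasis. A barcode was kept with at least 200 detected genes, at most 20% mitochondrial UMIs (unique molecular identifiers, each standing for 1 captured transcript) and at most 50% haemoglobin UMIs. UMIs were summed per library within cell classes gated on marker genes, and acinar cells were held apart from all other classes.

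All mice carried the R26[CA]30EYFP allele on a C57Bl/6J background. In that reporter a CA repeat keeps EYFP out of frame, and a chance slip of the repeat at replication switches on a heritable label. Each run gave an EYFP positive and an EYFP negative library. Homeostasis mice had no treatment. Run 3 mice received intraperitoneal cerulein at 50 ug/kg, 7 hourly injections a day on 2 consecutive days. Run 3 holds all pancreatitis cells, so run and condition cannot be told apart. The labels do not say whether libraries came from separate animals, so each p-value measures only the spread between these libraries.

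Cerulein is a cholecystokinin analogue that overstimulates acinar cells, which make and secrete digestive enzymes, and causes zymogen activation, oedema and leukocyte entry. In mice the injury is largely repaired within days to weeks, and acinar cells meanwhile secrete Reg proteins, small C-type lectins known as acute-phase products of the pancreas. Duct cells carry secretions away through the chloride channel Cftr, while fibroblasts, B cells, T cells and myeloid cells fill the stroma.

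The 6 libraries held 44833541 UMIs, with medians of 2553 to 7281 UMIs per kept barcode. In 8 classes tested, from acinar to fibroblast, none of the gating markers was at 0, though the same markers chose the barcodes and so do not test the classes. Haemoglobin took 62.6% and 20.2% of all UMIs in the run 3 libraries (EYFP negative, then EYFP positive) and 0.213% to 7.23% in the others. Digestive enzymes took 26.8% and 28.3% of kept UMIs against 1.38% to 4.02%. The mice also differed by sex: Xist alone marked 352 and 674 barcodes of run 1, where no barcode had Y-linked UMIs alone, while run 3 had 646 and 88 Y-linked barcodes against 5 and 0 with Xist alone. Run 2 held both kinds. Accordingly Xist fell, and Y-linked genes rose in B and T cells. The files hold no EYFP row, so the sort was not checked. The EYFP negative and positive libraries of a run shared 18, 68 and 13 barcodes (runs 1, 2 and 3), with median UMI ratios of 32.0, 11.6 and 38.5 between the copies, against 0 to 2 shared between runs. In run 3 all 13 lower copies lay in the EYFP negative library, and 7 of its 10 ductal barcodes were such copies. The calls in ductal cells are given with and without them, and those of other classes with them only.

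Library values below follow a fixed order: EYFP negative runs 1 and 2 and EYFP positive runs 1 and 2 for homeostasis, then EYFP negative and EYFP positive run 3 for pancreatitis. CPM is a gene's UMIs scaled to a common depth per class and library, with TMM factors for the library values of single genes. Sums over marker genes, ratios of summed CPM and at-least folds were computed without TMM factors. The scales differ and should not be compared. Acinar Reg3b in pancreatitis was 206.68 CPM summed without the factors, and 415 and 297 CPM per library with them. Fold changes are log2, pancreatitis over homeostasis, ± the standard error, from edgeR's quasi-likelihood test with Benjamini-Hochberg adjustment over all genes of a class. A gene passed at an adjusted p under 0.05.

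The pancreatitis libraries held higher shares of acinar, NK and innate lymphoid barcodes and lower shares of endothelial and ductal ones when all kept barcodes were counted. Acinar cells made up 26.7% and 41.7% of kept barcodes in run 3 and 1.84%, 1.03%, 4.2% and 12.4% in homeostasis, a difference in means of 29.4 percentage points. Both pancreatitis values lay above all homeostasis values. Natural killer and innate lymphoid cells, which kill stressed cells and release cytokines, reached 7.32% and 3.40% against 2.30%, 0.513%, 0.480% and 0. Endothelial cells made up 10.8% and 12.8% against 35.4%, 45.9%, 68.2% and 18.3%, and ductal cells 0.732% and 5.53% against 6.21%, 8.16%, 13.7% and 14.0%. The groups did not overlap in any of these classes. Counted outside the acinar gate, endothelial cells made up 14.8% and 21.9% against 36.1%, 46.3%, 71.2% and 20.9%, and ductal cells 0.999% and 9.49% against 6.32%, 8.24%, 14.3% and 16.0%, so both classes then overlapped between groups. NK and innate lymphoid cells stayed apart there, at 9.99% and 5.84% against at most 2.34%. B cells made up 42.2% and 26.3% outside the acinar gate against 23.4%, 18.2%, 3.63% and 21.5%, but over all kept barcodes 30.9% and 15.3% against 22.99%, 18.0%, 3.48% and 18.8%, where they overlapped. Acinar and NK shares each gave p = 0.0667 in a two-sided exact permutation test of 2 against 4 libraries (15 arrangements), the smallest p that this design allows, and 0.24 after adjustment over the 9 classes. The design therefore could not reach 0.05 for any share. Shares add up within a library, so a higher acinar share lowers the others. In run 3, B-gated barcodes carried 2358 and 1631 CPM of the 15 acinar markers, while the acinar gate asked for 10% of UMIs.

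**Figure D1:**
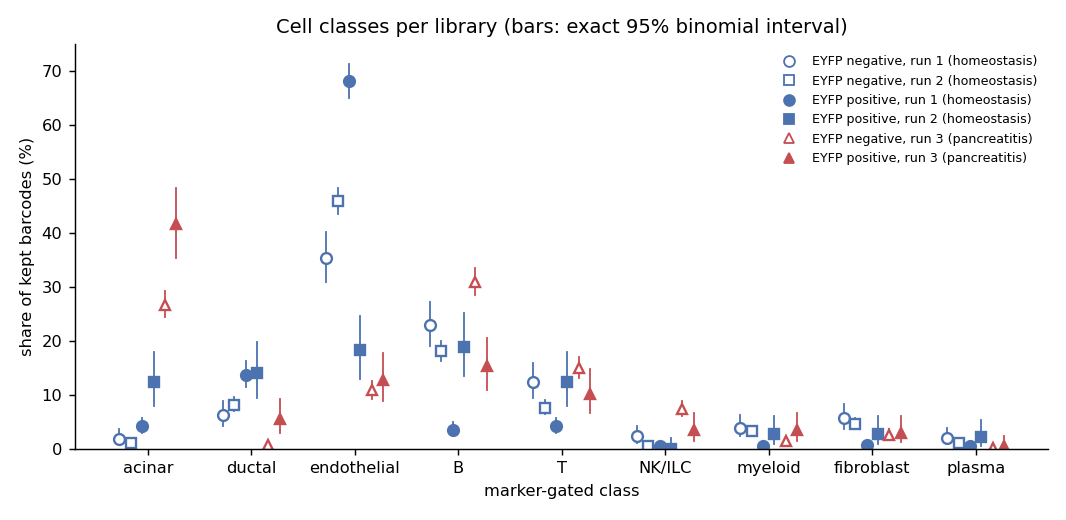
Share of kept barcodes (%) in each marker-gated class, 1 point per library with its exact 95% binomial interval, which covers counting error only. Acinar shares of 26.7% and 41.7% in run 3 stand above all 4 homeostasis libraries, and endothelial shares of 10.8% and 12.8% stand below them.

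In acinar cells, secreted Reg genes and a set of minor trypsinogen genes stood far higher in pancreatitis than in homeostasis, although no gene passed the test. This fit had 5 libraries, since EYFP negative run 1 held 8 acinar barcodes, and of 874 genes tested none was called (0.0%). At an unadjusted p under 0.05 edgeR counted 91 genes, and DESeq2 called 47. Reg3b (ENSMUSG00000071356), a bactericidal lectin also known as pancreatitis-associated protein, stood at 0, 6.03 and 0 CPM in the 3 homeostasis libraries and 415 and 297 CPM in pancreatitis. A Reg3b UMI was found in 58.4% of 365 and 52.0% of 98 acinar barcodes of run 3, but in 1 of 84 from homeostasis. Among B-gated barcodes, which should lack the gene, the pancreatitis share was 0.655% at a median of 5440 UMIs, against 6425 UMIs in acinar barcodes. The B gate left out barcodes with at least 5% of UMIs from acinar markers, and how far this lowers that share was not tested. Thinned to 1000 UMIs a barcode, 18.8% and 17.4% of run 3 acinar barcodes and none of homeostasis kept a Reg3b UMI. The fold change was 6.09 ± 0.91 with an adjusted p of 0.0806, and the ratio of summed CPM was 80.5 (counting interval 14.4 to 3185).

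Reg2 (ENSMUSG00000023140), a secreted regeneration-associated lectin, followed at 8.68, 60.3 and 6.51 CPM in homeostasis against 2844 and 2017 CPM (5.66 ± 0.93, adjusted p = 0.0806). It was seen in 85.5% and 75.5% of run 3 acinar barcodes and in 9.52% of the 84 from homeostasis. Both groups were fully apart for each of these genes. Reg3g, another bactericidal lectin, had no UMI in homeostasis and 145 and 114 CPM in pancreatitis, at least 9.55-fold higher at a floor of 3 counts over the group (adjusted p = 0.276). Reg1, the abundant member, showed 10308, 20536 and 1381 CPM against 52110.0 and 41089 CPM and a fold change within its error (1.12 ± 1.22). Of the 8 tested genes in the list of Reg and acinar injury genes, 6 had a positive fold change, and the list's median was 0.89 beside 0.0019 for all 874 genes.

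Trypsinogens are inactive proteases stored in zymogen granules, and the mouse has a cluster of near-identical copies. Gm2663 stood at 823 and 981 CPM in pancreatitis with no UMI in homeostasis, at least 59.7-fold higher, and 1810009J06Rik at 669 and 1002 CPM, at least 51.9-fold higher. Gm10334 measured 17.4, 42.2 and 19.5 CPM against 1001 and 1705 CPM (4.65 ± 0.71). Gm5771 measured 17.4, 12.1 and 13.0 CPM against 952 and 951 CPM (4.83 ± 0.77), and Prss1, the cationic trypsinogen, 8.68, 6.03 and 0 CPM against 277 and 419 CPM (5.14 ± 0.88). Each of these 5 genes had an adjusted p of 0.0806 and no overlap between groups, and was named with its values known. Reads of such copies can be split between them by the counting, so the single-gene values are uncertain. All 10 trypsinogen genes together took 14.2% and 15.2% of acinar UMIs in run 3, against 4.33% to 15.1% in homeostasis, where EYFP positive runs 1 and 2 gave the ends of the range. The minor copies thus stood apart between groups by far more than the family total did.

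The major enzymes were mixed. Chymotrypsinogens took 18.9% and 19.1% of acinar UMIs in pancreatitis against 5.84% to 13.6%. Carboxypeptidases, which trim C-terminal residues, took 4.64% and 5.05% against 3.56% to 8.84%. Cpa1, one of them, stood at 21701, 61294 and 4795 CPM in homeostasis and 36328 and 35725 CPM in pancreatitis, where the groups overlapped. Of 37 tested enzyme and granule genes, 20 had positive and 17 negative fold changes, with a median of 0.19. All 12 tested mitochondrially encoded genes were negative (median -2.43), and these transcripts took 0.251% and 0.424% of acinar UMIs in run 3 against 0.892% to 3.07%. Endothelial transcripts moved with this contrast: Ptprb, a vascular phosphatase, stood at 69.4, 139 and 19.5 CPM in homeostasis and 0 and 2.12 CPM in pancreatitis. All 12 endothelial markers summed to 4 and 18 CPM in run 3 and to 40 to 874 CPM in homeostasis; their part in the result was not tested. EYFP positive run 2 stood apart, with 4236 CPM of duct markers in its 23 acinar barcodes against 523 to 862 CPM elsewhere. Without it 29 acinar genes were called, and without EYFP positive run 1, 220 were.

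**Figure D2:**
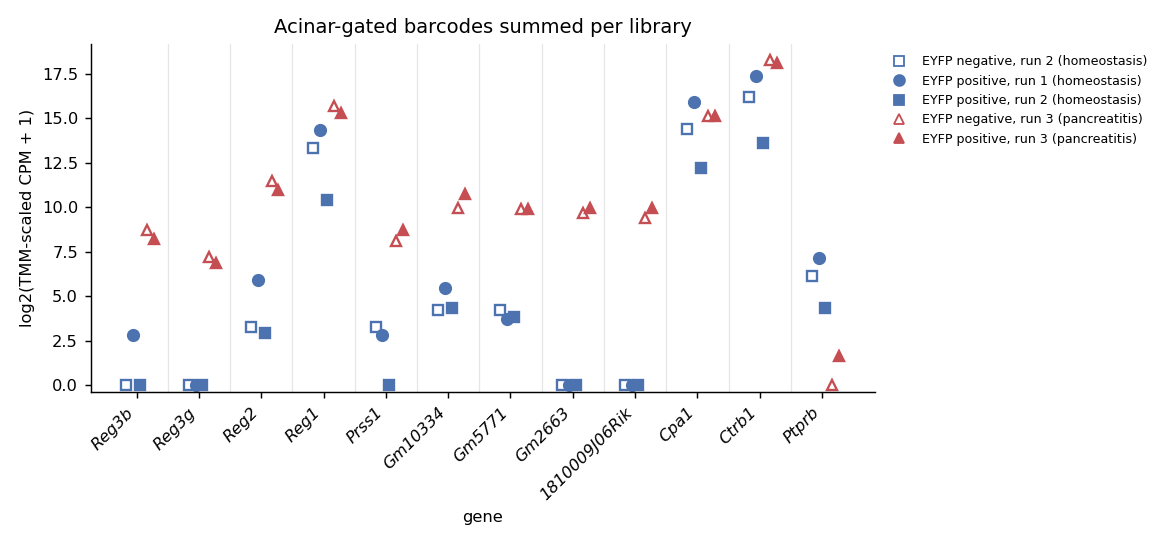
log2(TMM-scaled CPM + 1) of Reg, trypsinogen and other genes in acinar-gated barcodes, 1 point per library of the fit. Reg3b stood at 415 and 297 CPM in run 3 against at most 6.03 CPM in homeostasis, while the Cpa1 values of the groups overlap.

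In B cells, genes of the mitotic cycle fell in pancreatitis and a small set of stress-related genes rose. Of 6017 genes tested in 480 homeostasis and 458 pancreatitis barcodes, 24 rose (0.399%) and 43 fell (0.715%), 1.11% in all. The cell cycle list contributed 12 of these calls: 11 of its 24 tested members fell and 1 rose, with a median fold change of -0.89 beside -0.01 for all genes. Proliferating B cells occur in germinal centres and among plasmablasts, and the genes concerned act at replication (Top2a), chromosome segregation (Birc5, Cenpf), cyclin control (Ccna2, Ccnb1, Ccnb2) and cyclin destruction (Ube2c).

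Many such genes are switched on late in the cycle by promoters that pair CCAAT boxes, bound by NF-Y, with a CHR element (TTTGAA), bound by the DREAM and MuvB complexes. Of the 12 called cell cycle genes, 9 were matched by symbol in RefSeq's promoter table (GRCm38.p6). In the 250 bases before the first listed start, CCAAT on either strand lay in 8 of the 9, and in 33.8% of all 32851 windows. TTTGAA on either strand lay in 5 of the 9, and in 16% of all windows. Both motifs lay in the same 5, and in 5.55% of all windows. The 4 promoters below belong to genes that fell, and capitals mark each CCAAT and TTTGAA or its reverse complement.

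Mki67 promoter, chr7:135716380-135716629, minus strand: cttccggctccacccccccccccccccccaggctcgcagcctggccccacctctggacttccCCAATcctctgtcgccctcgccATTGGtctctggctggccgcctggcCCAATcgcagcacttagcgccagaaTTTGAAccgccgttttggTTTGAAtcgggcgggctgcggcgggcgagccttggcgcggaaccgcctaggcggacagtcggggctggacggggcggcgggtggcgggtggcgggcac
Top2a promoter, chr11:99024190-99024439, minus strand: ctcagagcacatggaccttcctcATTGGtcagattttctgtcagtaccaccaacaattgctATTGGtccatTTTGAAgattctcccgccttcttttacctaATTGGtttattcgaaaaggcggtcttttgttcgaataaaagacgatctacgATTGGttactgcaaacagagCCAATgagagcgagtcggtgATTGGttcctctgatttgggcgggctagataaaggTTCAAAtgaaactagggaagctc
Ube2c promoter, chr2:164769679-164769928, plus strand: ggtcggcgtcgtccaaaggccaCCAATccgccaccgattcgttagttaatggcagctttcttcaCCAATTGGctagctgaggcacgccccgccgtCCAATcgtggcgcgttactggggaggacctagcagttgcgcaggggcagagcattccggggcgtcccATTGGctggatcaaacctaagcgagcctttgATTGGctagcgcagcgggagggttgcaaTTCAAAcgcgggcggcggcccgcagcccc
Ccnb2 promoter, chr9:70421555-70421804, minus strand: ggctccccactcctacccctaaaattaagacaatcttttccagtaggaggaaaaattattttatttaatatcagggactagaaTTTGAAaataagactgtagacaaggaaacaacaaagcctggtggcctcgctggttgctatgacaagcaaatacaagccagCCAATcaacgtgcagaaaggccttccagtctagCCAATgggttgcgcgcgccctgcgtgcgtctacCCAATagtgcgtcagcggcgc

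A match describes these letters and is not a measured binding site. Mki67 (ENSMUSG00000031004), which coats mitotic chromosomes, stood at 100.2, 60.1, 14.1 and 6.96 CPM in homeostasis and 1.37 and 0 CPM in pancreatitis, and fell by 5.72 ± 0.58 (adjusted p = 3.67e-05). All homeostasis libraries lay above both pancreatitis libraries, and the EYFP negative ones were highest. The ratio of homeostasis to pancreatitis, from 139 and 3 UMIs, was 55.7 (counting interval 18.7 to 273). Ube2c (ENSMUSG00000001403), the ubiquitin-conjugating enzyme of the anaphase-promoting complex, measured 66.8, 53.8, 14.1 and 0 CPM against 0.457 and 0 CPM, with 108 UMIs against 1 and a ratio of 129.8 (counting interval 22.8 to 5175). Cenpf, a kinetochore protein, had 120 UMIs in homeostasis and none in pancreatitis, at least 48.1-fold lower. Ccnb2 had 72 against 0 UMIs (at least 28.9-fold lower) and Ccna2 51 against 0 (at least 20.4-fold lower). Since EYFP positive run 2 also held 0 UMIs of these 3 genes and of Ube2c, their groups met at 0. The counting intervals and floors of this paragraph take each UMI as a separate draw. Of 991 homeostasis UMIs of 11 mitotic genes (below), 871 lay in 7 barcodes, so these bounds are too narrow.

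Top2a, which untangles replicated DNA, stood at 88.6, 36.8, 7.03 and 13.9 CPM against 6.4 and 14.4 CPM (-2.75 ± 0.59, adjusted p = 0.0226); in EYFP positive cells the run 3 value was above both homeostasis values. Hmgb2, a chromatin protein of cycling cells, fell from 466, 508, 204 and 236 CPM to 144 and 97.0 CPM (-1.60 ± 0.25, adjusted p = 0.00188) with no overlap. Against that direction, Ccnd2, the D-type cyclin of resting and activated B cells, rose from 103, 88.8, 49.2 and 20.9 CPM to 177 and 241 CPM (1.33 ± 0.29, adjusted p = 0.0262).

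Few barcodes carried the mitotic signal. They were counted over 11 mitotic genes, the 8 called genes Mki67, Top2a, Ccnb1, Ccnb2, Ccna2, Birc5, Cenpf and Ube2c with Cdk1, Cenpa and Tpx2, which were not called. These 11 had 991 UMIs in homeostasis, and 871 of them lay in 7 of 480 barcodes, each with at least 6 of the 11 genes. The highest single barcode held 313. In pancreatitis the 11 genes had 125 UMIs spread over 99 of 458 barcodes, and none had 6 or more genes, which allows a share of up to 0.655%. By library, barcodes with 6 or more numbered 2 of 100, 4 of 316, 1 of 29 and 0 of 35 in homeostasis against 0 of 422 and 0 of 36. At a threshold of 2 genes the shares were 3.12% (exact 95% interval 1.76% to 5.10%) and 0.873% (0.238% to 2.22%), at median depths of 4053 and 5440 UMIs. Thinned to 1000 UMIs, they were 1.75% and 0. The 11 genes and these thresholds were chosen after the values were seen. T cells showed a like distribution: of 400 UMIs of the 11 genes in homeostasis, 346 lay in 3 of 246 barcodes with at least 6 genes, and pancreatitis had 109 UMIs and 0 of 228 such barcodes, which allows a share of up to 1.32%. At least 2 of the genes were seen in 7 homeostasis and 8 pancreatitis T barcodes, or in 1.33% and 0 after thinning to 1000 UMIs. No cell cycle gene of 17 tested was called in T cells, and the difference between B and T cells was not tested for this set. DESeq2 called 36 B-cell genes. Among Y-linked barcodes of runs 2 and 3 alone edgeR called 0 of 2094 genes, with 120 at an unadjusted p under 0.05, and Hmgb2 turned to 0.34. Without EYFP negative run 3, 2 B-cell genes were called, both lower, so that none of the 24 that rose kept its call, and Top2a and Stmn1 turned to 0.37 and 0.28. Without EYFP positive run 3 the count was 10, of which 1 was higher and 9 lower, without EYFP negative run 1, 30, without EYFP negative run 2, 31, and without EYFP positive run 2, 156.

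**Figure D3:**
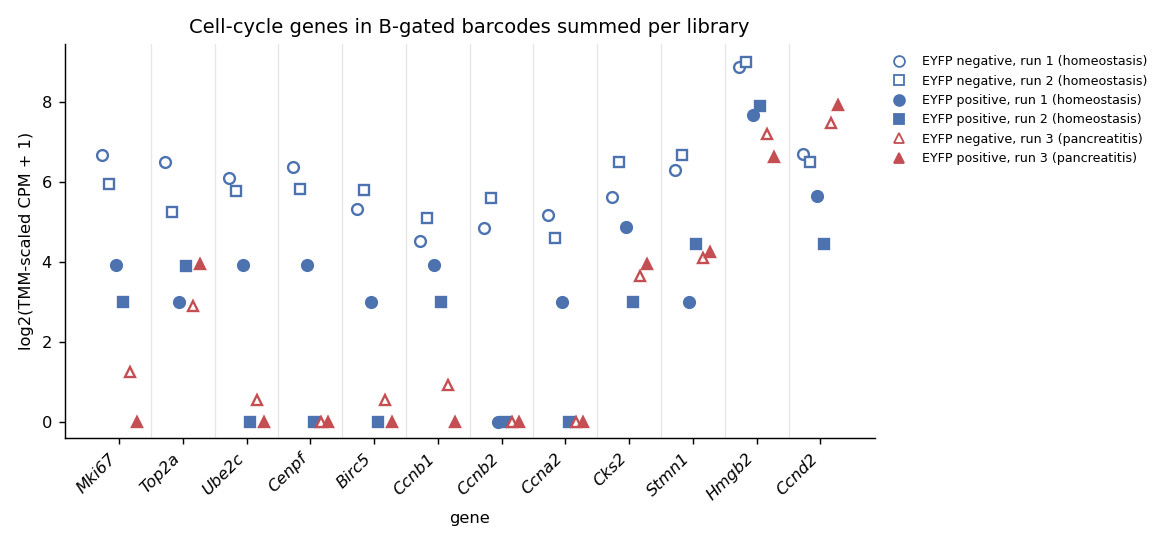
log2(TMM-scaled CPM + 1) of the 12 called cell cycle genes in B-gated barcodes, 1 point per library. Mki67 lies lowest in run 3 (1.37 and 0 CPM), Top2a, Stmn1 and Cks2 overlap between groups, and Ccnd2 lies highest in run 3 (177 and 241 CPM).

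Some antibody transcripts also fell in the B-cell gate. Jchain (ENSMUSG00000067149), which joins secreted IgM and IgA, stood at 103, 128, 14.1 and 48.7 CPM against 4.12 and 3.59 CPM (-4.67 ± 0.44, adjusted p = 2.04e-05). Ighg2b had 66 UMIs against 2 (-5.21 ± 0.96), and Ighg1, spread unevenly over homeostasis at 176, 6.28, 28.1 and 299 CPM, stood at 3.66 and 0 CPM in pancreatitis (-4.87 ± 1.15, adjusted p = 0.0493). The other 24 of 27 tested genes in the list of B activation and antibody genes were not called, and 16 of the 27 were positive (median 0.07). Plasma cells, the main source of Jchain, numbered 3 of 1601 barcodes in pancreatitis and 38 of 3208 in homeostasis. Of the homeostasis plasma barcodes 1, 1, 3 and 4, in library order, were lower copies of shared barcodes. Outside the B cells, Igkc in T cells fell from 450.1, 370.3, 15.3 and 6.97 CPM to 10.5 and 0 CPM, with overlap at the EYFP positive libraries, and the part of free antibody RNA in these results was not tested.

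Several calls in B cells were genes of other cell types. Apoe, a lipid carrier of macrophages, stood at 343, 417, 379.6 and 445 CPM against 105 and 46.7 CPM (-2.30 ± 0.29, adjusted p = 0.000188). Spp1, abundant in ducts, fell from 21.8, 47.6, 98.4 and 48.7 CPM to 0.457 and 14.4 CPM, and the endothelial Ptprb from 23.2, 45.8, 260.1 and 20.9 CPM to 1.83 and 10.8 CPM. The 15 duct markers summed to 88 to 175 CPM in homeostasis B cells and to 28 and 50 CPM in pancreatitis, and the 12 endothelial markers to 89 to 349 and to 155 and 158 CPM. Try4, an acinar trypsinogen, rose from 81.3, 106, 84.4 and 139 CPM to 289 and 198 CPM. All 4 tested haemoglobin genes rose in B cells, and the 7 erythroid markers reached 10276 and 564 CPM in run 3. Their part in these calls was not tested.

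Other genes that rose in B cells included Phlda1, Rbpms, Rhob, Gadd45g, Coq10b and Ddit4, none of them called without EYFP negative run 3. Phlda1 (ENSMUSG00000020205), a stress- and receptor-induced protein with a pleckstrin homology-like domain, stood at 10.2, 8.97, 7.03 and 6.96 CPM in homeostasis and 69.0 and 129 CPM in pancreatitis (3.07 ± 0.34, adjusted p = 5.23e-05). Its UMIs were found in 3.33% of homeostasis and 20.3% of pancreatitis B barcodes (0.998% and 6.39% when thinned to 1000 UMIs), and in 0.648% of acinar barcodes of pancreatitis. Rbpms, an RNA-binding protein, rose from 7.26, 16.2, 7.03 and 0 CPM to 65.4 and 50.3 CPM (2.48 ± 0.39). Rhob, a small GTPase of endosomes and stress signalling, rose from 31.9, 39.5, 49.2 and 125 CPM to 167 and 172 CPM (1.75 ± 0.28), with the closest homeostasis value in EYFP positive run 2. Gadd45g, a growth-arrest gene, reached 70.9 and 162 CPM from 18.9, 23.3, 21.1 and 62.6 CPM, with EYFP positive run 2 again closest. Ddit4, a stress-induced inhibitor of mTORC1, rose from 21.8, 47.6, 28.1 and 55.6 CPM to 111 and 97.0 CPM (1.46 ± 0.29, adjusted p = 0.0137). Rbpms (2.60 ± 0.46) and Rhob (1.74 ± 0.39) also differed in B cells from the sum of all other non-acinar cells of the same libraries (adjusted p = 0.00388 and 0.0337), a contrast that called 14 genes higher (0.123%) and 35 lower (0.308%) of 11362, 0.431% in all. Antibody genes went both ways in that contrast. Ighg3 was called higher (13.27 ± 1.23), while Iglc3 (-7.49 ± 0.79), Jchain (-4.86 ± 0.83) and Ighv10-1 (-8.88 ± 2.05) were called lower. The makeup of the sum of other cells differed between runs.

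Cytosolic chaperones stood higher in pancreatitis lymphocytes. In T cells 2 members of the cytosolic heat shock list passed, as did the co-chaperone Dnajb4 outside it. Heat shock proteins refold damaged proteins under the transcription factor HSF1, which binds inverted repeats of nGAAn. In B cells all 10 tested members of the cytosolic heat shock list had positive fold changes (median 0.99) and Hsp90aa1 rose. In T cells all 10 were positive (median 1.18 beside -0.01 for all genes) and Hsp90aa1 and Hsph1 rose. In ductal cells all 12 were positive (median 0.40) with Hspa1a and Hspa1b called. Endothelial cells had 9 of 12 positive with none called, fibroblasts 8 of 11 with Hspa1a called, myeloid cells 7 of 7 with none called, and acinar cells 1 of 3 with none called.

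The inducible chaperones Hspa1a and Hspa1b are near-identical neighbouring genes, so reads may be split between them and their single values are uncertain. Their promoters, from the same RefSeq table, show how alike the copies are: 247 of 250 bases match (98.8%). Capitals mark GAANNTTC, an inverted pair of HSF1 repeat units that reads the same on both strands. It lay in 5 of 10 matched heat shock genes and in 6.69% of all windows. The pair in the opposite order, TTCNNGAA, was not searched.

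Hspa1a promoter, chr17:34972157-34972406, minus strand: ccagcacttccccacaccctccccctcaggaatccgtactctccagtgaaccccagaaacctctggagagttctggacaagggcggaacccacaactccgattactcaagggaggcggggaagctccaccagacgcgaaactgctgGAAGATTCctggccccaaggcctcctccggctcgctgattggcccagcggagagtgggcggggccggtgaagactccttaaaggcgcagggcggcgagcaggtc
Hspa1b promoter, chr17:34959239-34959488, minus strand: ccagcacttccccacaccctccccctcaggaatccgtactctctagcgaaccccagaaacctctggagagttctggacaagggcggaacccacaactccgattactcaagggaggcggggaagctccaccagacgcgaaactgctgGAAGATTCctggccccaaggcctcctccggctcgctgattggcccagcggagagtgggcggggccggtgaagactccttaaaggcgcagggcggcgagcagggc

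The near-identical Hspa1a and Hspa1b were each counted among the 5 heat shock genes with GAANNTTC. That order was absent from the windows of Hsph1 and Dnajb4, which were called in T cells, and Hsp90aa1 was not matched. The Hsph1 window does hold the opposite order, as TTCTCGAA, so it does not lack an inverted pair. A longer form of GAANNTTC with a further repeat unit lay in 1 of the 10 matched genes. A link between these letters and the lymphocyte calls was not tested. An Hspa1a or Hspa1b UMI was found in 93.8% and 97.2% of B barcodes of run 3. In homeostasis the shares were 9.00%, 43.4%, 3.45% and 80.0%, so run 1 lay low in both EYFP fractions and run 2 lay between. After thinning to 1000 UMIs the pancreatitis shares were 70.9% and 77.1% and the homeostasis shares 1.04%, 31.8%, 0 and 60.7%. T cells followed the same order, at 90.7% and 95.8% in run 3 against 9.26%, 47.0%, 11.4% and 73.9%. In acinar barcodes of run 3, from the same droplet runs, the share was 3.01% and 8.16% at medians of 6425 and 6503 UMIs. Acinar barcodes of homeostasis had 0, 16.7%, 2.86% and 56.5% (of 8, 18, 35 and 23 barcodes), so that run 2, not run 3, was highest there. Endothelial cells showed 49.3% and 43.3% in run 3 against 37.7%, 45.8%, 43.2% and 70.6%. With the spread between runs 1 and 2 this wide, Hspa1a did not pass in B cells (4.36, 457, 7.03 and 1036 CPM against 1458 and 1811 CPM, 2.20 ± 0.85, adjusted p = 0.469) or in T cells (3.22 ± 0.74, adjusted p = 0.1).

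**Figure D4:**
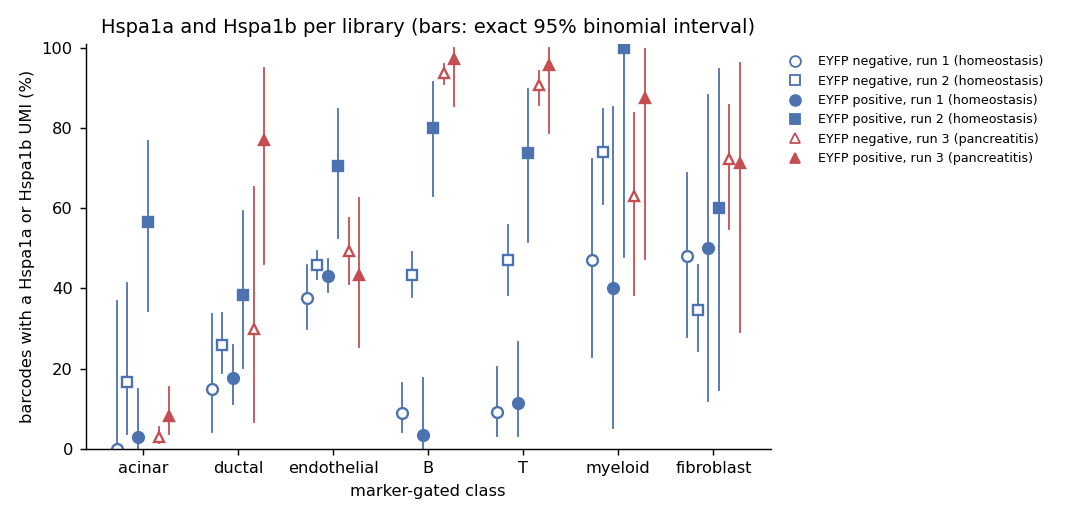
Share of barcodes (%) with an Hspa1a or Hspa1b UMI in each class and library, with exact 95% binomial intervals for counting error, for libraries with at least 5 barcodes of the class. B and T cells range from under 12% in run 1 to over 90% in run 3, whereas endothelial cells do not separate by condition.

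Hsp90aa1 (ENSMUSG00000021270), the inducible cytosolic HSP90, varied less between the homeostasis runs. In B cells it rose from 331, 433, 189.8 and 445 CPM to 961 and 1189 CPM (1.54 ± 0.27, adjusted p = 0.00496). In T cells it rose from 246, 347, 385 and 355 CPM to 804 and 1146 CPM (1.5 ± 0.25, adjusted p = 0.0176). Both pancreatitis libraries were higher than all homeostasis libraries in either class. Dnajb4, an HSP40 co-chaperone outside the list, rose in B cells from 26.1, 43.1, 28.1 and 55.6 CPM to 102 and 97.0 CPM (1.39 ± 0.27).

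In T cells 15 genes rose (0.318%) and 7 fell (0.148%) of 4714 tested, 0.467% in all, in 246 homeostasis and 228 pancreatitis barcodes. Dnajb4 (ENSMUSG00000028035) had the largest rise apart from haemoglobin and Y-linked genes, from 14.2, 15.8, 6.11 and 6.97 CPM to 135 and 93.6 CPM (3.28 ± 0.35, adjusted p = 0.000339), and its UMIs marked 6.50% of homeostasis and 40.4% of pancreatitis T barcodes (0.885% and 11.9% when thinned to 1000 UMIs), against 0.864% of acinar barcodes of pancreatitis. Hsph1, an HSP110 nucleotide exchange factor, rose from 28.3, 37.6, 51.9 and 48.8 CPM to 103 and 147 CPM (1.54 ± 0.28, adjusted p = 0.0234). Klf6, an early-response transcription factor, rose from 232, 156, 269 and 272 CPM to 602 and 767 CPM (1.54 ± 0.25, adjusted p = 0.017). None of these 3 genes overlapped between groups, but the naming rule favoured genes without overlap, so this adds no support.

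Coq10b, a coenzyme Q-binding mitochondrial protein, rose in T cells (36.8, 47.5, 58.0 and 76.6 CPM to 201 and 160.5 CPM, 1.80 ± 0.29) as it did in B cells (33.4, 36.8, 21.1 and 48.7 CPM to 129.9 and 93.4 CPM, 1.72 ± 0.26). Rhob and Phlda1 rose in T cells too (2.02 ± 0.35 and 2.1 ± 0.40). Rgs2, a brake on G protein signalling, Tob2, an antiproliferative factor, and Gimap7, a lymphocyte GTPase, rose by 1.45 ± 0.29, 1.33 ± 0.26 and 1.47 ± 0.27. Of 19 tested immediate-early genes 18 were positive (median 0.70), and Klf6 alone passed. No gene passed among the 27 tested genes of T and NK activation and effector function, where 13 were positive and the median was -0.04. Besides Xist and Gm47283, the lower calls were Igkc of B cells, Spp1 of ducts (36.8, 79.2, 397 and 69.7 CPM against 1.62 and 4.46 CPM), Ptprb of vessels, Sostdc1 and Stfa3. Of the 15 genes that rose, 3 were haemoglobin and 2 Y-linked. Stfa3, a stefin protease inhibitor, rested on EYFP positive homeostasis, with 0, 1.98, 107 and 132 CPM against 0 UMIs.

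The 15 duct markers summed to 89 to 508 CPM in homeostasis T cells and to 81 and 45 CPM in pancreatitis, and their part was not tested. With run as a random block, 4 T-cell genes were called. Leaving out EYFP negative run 3 gave 7 calls, all lower, so that none of the 15 genes that rose kept its call. Leaving out EYFP negative run 2 gave 12, EYFP positive run 1, 42, and EYFP positive run 2, 56.

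Among fibroblasts, Pi16, Sema3c, Efemp1 and Fn1 were lower and Ccl7, Mylk, Cdkn1c and Serpine2 higher in the 1 pancreatitis library that could be fitted. Only EYFP negative libraries held at least 10 fibroblasts, so this fit set 36 barcodes of run 3 against 25 and 81 of runs 1 and 2, without an EYFP term and with 1 residual degree of freedom. The lone pancreatitis library is assumed to vary like the homeostasis pair, so the calls compare that library with 2 others and have no replicate check in pancreatitis. Of 5017 genes 14 rose (0.279%) and 57 fell (1.14%), 1.42% in all. DESeq2 called 10 of them, and without the haemoglobin limit edgeR called 13, 11 of them the same. Pi16 (ENSMUSG00000024011), a protease inhibitor of adventitial fibroblasts, stood at 443 and 1268 CPM in homeostasis and 17.6 CPM in pancreatitis (-5.61 ± 0.78, adjusted p = 2.15e-09). Sema3c, a secreted semaphorin, fell from 168 and 467 CPM to 4.39 CPM, and its ratio of homeostasis to pancreatitis was 74.4 (counting interval 13.2 to 2955). Dpp4, a membrane dipeptidase, fell from 65.8 and 256 CPM to 30.7 CPM (-2.48 ± 0.61). Efemp1, a fibulin of elastic matrix, fell from 515 and 1498 CPM to 123 CPM (-3.07 ± 0.61). Pi16, Sema3c, Dpp4 and Efemp1 were chosen after their values were seen.

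At the level of barcodes, Pi16 UMIs marked 28.0% of 25 and 33.3% of 81 homeostasis fibroblasts and 5.56% of 36 from pancreatitis. The exact 95% intervals were 12.1% to 49.4%, 23.2% to 44.7% and 0.680% to 18.7%, for counting error only. Thinned to 1000 UMIs, the shares were 14.3% (3.05% to 36.3%) and 25.4% (15.8% to 37.1%) against 6.45% (0.791% to 21.4%), and the intervals overlapped. In endothelial barcodes, which should lack it, the share was 0.192% in homeostasis and 0.562% in pancreatitis. The small EYFP positive libraries did not follow: 3 of 7 fibroblasts of run 3 had Pi16 UMIs, with 20 UMIs in all, as had 3 of 6 in run 1 and 0 of 5 in run 2. Sema3c there had 3 UMIs in run 3 and 21 and 1 in runs 1 and 2.

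Among matrix genes, Fn1 (fibronectin, ENSMUSG00000026193) fell from 796 and 1368 CPM to 87.9 CPM (-3.66 ± 0.64, adjusted p = 5.07e-06) and Col14a1, a fibril-associated collagen, from 401 and 1154 CPM to 215 CPM (-1.90 ± 0.56), while Ctgf, a matricellular target of TGF-beta and YAP, rose from 12 and 100.5 CPM to 202 CPM (1.62 ± 0.48, adjusted p = 0.0476). Of 31 tested genes of extracellular matrix and fibrosis 20 were positive (median 0.42 beside -0.02 for all genes), with 1 called higher and 2 lower. Of 10 tested cytokine, chemokine and NF-kB genes 2 were positive and 8 negative (median -0.74), with 1 called higher and 2 lower. Ccl7, a monocyte attractant, rose from 12 and 19.5 CPM to 167 CPM (3.25 ± 0.59, adjusted p = 1.24e-05), though the 7 EYFP positive fibroblasts of run 3 had no Ccl7 UMI. Ackr3, an atypical receptor that scavenges CXCL12, had 122 UMIs against 0, at least 17.6-fold lower, and Cxcl13, the B-cell attractant, 43 against 0, of which 40 came from run 1.

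Several genes of other roles rose beside Ccl7. Mylk, myosin light chain kinase, rose from 41.9 and 64.9 CPM to 299 CPM (2.38 ± 0.48), Itga1, a collagen-binding integrin subunit, from 35.9 and 64.9 CPM to 189 CPM, and Col4a4, a basement membrane collagen chain, from 59.9 and 45.4 CPM to 206 CPM. Cdkn1c, an inhibitor of cyclin-dependent kinases, rose from 168 and 357 CPM to 1081 CPM (1.97 ± 0.48, adjusted p = 0.00474), and Serpine2, a protease inhibitor, from 383 and 396 CPM to 1392 CPM. The 9 pericyte and smooth muscle markers summed to 294 CPM in this library and to 438 and 224 CPM in homeostasis, so their values overlapped. All 81 tested ribosomal protein genes were negative (median -0.75), of which Rpl13a passed. The clock output genes Nr1d1 and Dbp fell (-2.90 ± 0.65 and -4.23 ± 0.95), though Dbp stood at 5.99 and 152 CPM in the 2 homeostasis runs and 4.39 CPM in pancreatitis, so its fall rested on run 2.

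**Figure D5:**
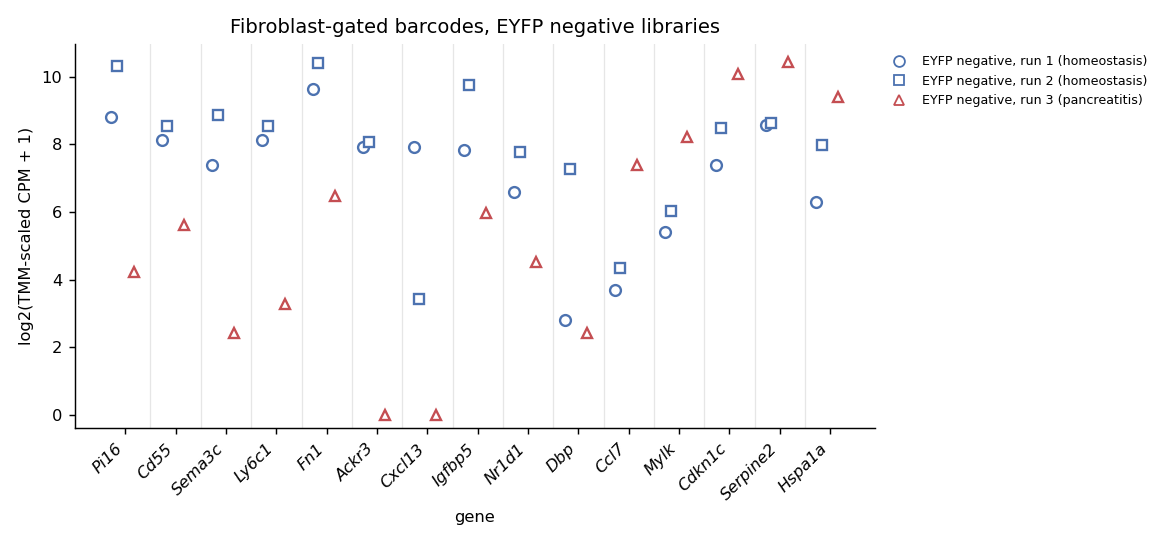
log2(TMM-scaled CPM + 1) in fibroblast-gated barcodes of the 3 EYFP negative libraries, 1 point per library. Pi16, Cd55, Sema3c, Ly6c1 and Fn1 lie lowest in run 3, Ccl7, Mylk, Cdkn1c, Serpine2 and Hspa1a lie highest there, and Dbp is about equally low in run 1.

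In ductal cells, transcripts of the Notch target Hes1 and of the chloride channel Cftr stood lower in pancreatitis, and those of Hspa1a, Hspa1b and Tmem45a higher. Of 5829 genes 8 rose (0.137%) and 7 fell (0.12%), 0.257% in all, in 310 homeostasis and 23 pancreatitis barcodes. Hes1 (ENSMUSG00000022528), a transcriptional repressor that keeps duct and progenitor cells from acinar and endocrine fates, fell from 550.0, 601, 999.6 and 725 CPM to 61.4 and 284 CPM (-1.86 ± 0.32, adjusted p = 0.00114). Cftr, which drives bicarbonate-rich fluid, fell from 91.1, 117, 110.2 and 59.5 CPM to 20.5 and 13.8 CPM (-2.58 ± 0.57, adjusted p = 0.0341). Both pancreatitis libraries lay below all others for either gene. EYFP negative run 3 held 10 duct barcodes at a median of 1249.5 UMIs, and EYFP positive run 3 held 13 at 16675. Low CPM values of these libraries, here and below, stand for few UMIs. Thinned to 1000 UMIs, 36.2% of homeostasis and 14.3% of pancreatitis duct barcodes kept a Hes1 UMI, the latter being 3 of 21, and 2 of 13 in EYFP positive run 3, which held no lower copies. Most EYFP negative run 3 duct barcodes were copies of EYFP positive ones, so the 2 libraries are not independent, and without the copies Hes1 did not pass.

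The duct identity genes Sox9 and Krt19 did not pass: Sox9 stood at 1016, 982, 931 and 639.8 CPM against 839.6 and 1208 CPM (0.35 ± 0.25) and Krt19 at 349.7, 429, 361 and 469 CPM against 164 and 457 CPM (-0.17 ± 0.29). Of 17 tested duct and metaplasia genes 5 were positive, with a median of -0.22 beside -0.03 for all genes. Ier2, an immediate-early gene, fell from 543, 497, 520.1 and 915 CPM to 184 and 263 CPM, and Gmnn, geminin, an inhibitor of replication licensing, from 215, 388, 374 and 234 CPM to 81.9 and 104 CPM (-1.60 ± 0.37, adjusted p = 0.0454). Igfbpl1, an IGF-binding protein relative, fell from 109, 126, 113 and 96.7 CPM to 0 and 10.4 CPM (-3.56 ± 0.61). Tmem45a, a membrane protein, rose from 3.64, 23.5, 12.2 and 7.44 CPM to 102 and 100.4 CPM (3.04 ± 0.58, adjusted p = 0.00536). Hspa1b rose from 10.9, 70.5, 21.9 and 115 CPM to 184 and 349.6 CPM (2.55 ± 0.47, adjusted p = 0.00274). The call on Nupr1, a stress-induced chromatin protein, came from 1 library: it stood at 266, 388, 226 and 205 CPM in homeostasis, 2621 and 169.6 CPM in pancreatitis.

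Set against all other non-acinar cells of the same libraries, ductal cells differed in 3 of 11686 genes (0.0257%), all lower. They were Ins2 (-9.05 ± 1.20, adjusted p = 0.0249), Ins1 (-12.54 ± 1.54, adjusted p = 0.0249) and Slc2a2 (-8.83 ± 1.31, adjusted p = 0.0474), genes of insulin-producing beta cells, which are not duct transcripts. The makeup of the other cells also differed between runs, and its part in these calls was not tested.

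Because 7 of the 10 EYFP negative run 3 duct barcodes were lower copies of EYFP positive ones, this class was also fitted without such copies. With 3 barcodes left, EYFP negative run 3 dropped below the minimum of 10, so pancreatitis was then the 13 barcodes of EYFP positive run 3 alone, with its spread assumed like that of the other group. That fit called 11 genes, 10 of them among the 15. Cftr (-2.70 ± 0.65, adjusted p = 0.0368), Igfbpl1 (-3.33 ± 0.69, 0.00372), Tmem45a (3.18 ± 0.76, 0.0355), Hspa1a (2.27 ± 0.50, 0.00947) and Hspa1b (2.74 ± 0.45, 2.1e-05) stayed called. Hes1 (-1.61 ± 0.42, adjusted p = 0.0799), Gmnn (-1.58 ± 0.46, 0.209) and Ier2 (-1.43 ± 0.42, 0.231) did not, and Nupr1 turned to -0.35. EYFP negative run 3 also carried 5561 CPM of acinar markers and 16707 CPM of erythroid markers, against 1459 to 2663 and 11 to 1112 CPM in homeostasis, and the part of these in the result was not tested. Leaving out EYFP negative run 3 gave 7 calls, all among the 15, EYFP positive run 3, 8, EYFP negative run 2, 27, EYFP positive run 1, 38, and EYFP positive run 2, 23; with run as a random block there were 9.

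In endothelial cells 1 gene rose (0.0141%) and 3 fell (0.0424%) of 7082 tested, 0.0565% in all, in 1561 homeostasis and 178 pancreatitis barcodes. Reg1 (ENSMUSG00000059654) rose from 42.3, 59.6, 49.4 and 74.5 CPM to 157 and 223 CPM (1.82 ± 0.28, adjusted p = 0.00585), and the immunoglobulin genes Igkc and Ighm and the sex-linked Xist fell. These are transcripts of acinar and B cells and of the female X chromosome. The 15 acinar markers summed to 4004 and 3281 CPM here in run 3 and to 1559 to 4944 CPM in homeostasis; their part was not tested. No gene of endothelial identity and activation passed among 27 tested (15 positive, median 0.03).

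Most immediate-early genes stood lower, and none passed. Junb, an AP-1 subunit, measured 1143, 497, 931 and 1391 CPM against 272 and 144 CPM (-2.12 ± 0.40, adjusted p = 0.0658), and Egr1, another immediate-early factor, 772, 184, 523 and 455 CPM against 97.4 and 52.5 CPM (-2.57 ± 0.50, adjusted p = 0.0691). Of 21 tested immediate-early genes 19 were negative (median -0.73). Sparc, a collagen-binding matricellular protein, measured 1630.2, 2018, 1747 and 1779.9 CPM against 3435 and 4043 CPM (1.08 ± 0.24, adjusted p = 0.163). The groups did not overlap for these 3 genes, which were named with their values known. Leaving out EYFP negative run 1 gave 2 calls, EYFP negative run 2, 12, and EYFP positive run 1, 21; with run as a random block there were 2.

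No myeloid gene passed among 2834 tested (0.0%), in a fit of 19 EYFP negative barcodes of run 3 against 17 and 58 of runs 1 and 2 with 1 residual degree of freedom. At an unadjusted p under 0.05 edgeR counted 226 genes, and DESeq2 called 10. Genes with low p-values included Xist, Fscn1, Cd209a, Apol7c, Il4i1 and Ccr7. Fscn1, an actin bundler of mature dendritic cells, which carry antigen to lymph nodes, stood at 554 and 711 CPM in homeostasis and had no UMI in pancreatitis, at least 17.7-fold lower (adjusted p = 0.158). Ccr7, their lymph node homing receptor, stood at 347 and 346 CPM against 0 (at least 9.31-fold lower). At least 2 of Fscn1, Ccr7, Apol7c and Il4i1 were seen in 4 of 17, 8 of 58, 0 of 5 and 0 of 5 homeostasis barcodes and in 0 of 19 and 0 of 8 from pancreatitis, where 0 of 27 allows a share of up to 11.1%. In endothelial barcodes the share was 0.256% in homeostasis and 0 in pancreatitis. In B barcodes it was 9.58% and 15.7%, or 1.25% and 1.98% after thinning to 1000 UMIs, so the set is not particular to myeloid cells. That set was chosen after the values were seen.

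Cd209a, a lectin of monocyte-derived dendritic cells, measured 14.8 and 30.7 CPM against 638 CPM (4.67 ± 0.55), and Lyz2, lysozyme, 7843 and 10193 CPM against 20204 CPM (1.17 ± 0.22). The few EYFP positive myeloid barcodes did not follow for Cd209a, with 1 UMI in each of runs 1, 2 and 3. All 10 tested MHC class II presentation genes were negative (median -1.28 beside -0.07 for all genes). H2-Aa, an alpha chain, measured 8693 and 11411 CPM against 3400.5 CPM (-1.56 ± 0.27, adjusted p = 0.26). With 19 barcodes in 1 pancreatitis library, a different mix of myeloid cells and a change within them cannot be told apart. Plasma and NK cells had too few libraries with 10 barcodes for a test.

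The effect of pancreatitis was tested for a difference between EYFP positive and EYFP negative cells. Each fraction had 1 pancreatitis library and the spread came from the homeostasis pairs alone, so an uncalled gene does not show an equal effect. In ductal cells 7 of 10 EYFP negative run 3 barcodes were lower copies of EYFP positive ones. The test of that difference called Nupr1 in ductal cells (-3.46 ± 0.57, EYFP positive minus negative, adjusted p = 0.00197; 0.0142% of 7051 genes), where the value rests on the EYFP negative run 3 library of 10 barcodes. In endothelial, B and T cells and in all cells outside the acinar gate together it called none (0.0%). At an unadjusted p under 0.05 these fits counted 211, 161, 146 and 635 genes, and DESeq2 called 2, 1, 1 and 9. Over all non-acinar cells the comparison of pancreatitis with homeostasis called 0 of 13176 genes (0.0%), with 1778 at an unadjusted p under 0.05 and 222 by DESeq2, and without EYFP positive run 2 edgeR called 290. In run 3 itself acinar Reg3b stood at 415 CPM (EYFP negative) and 297 CPM (EYFP positive), and acinar shares were 26.7% and 41.7%. An Hspa1a or Hspa1b UMI marked 93.8% and 97.2% of B barcodes. The mitotic fall was less clear in EYFP positive B cells. There Top2a lay above both homeostasis values, and 6 or more mitotic genes marked 0 of 36 barcodes against 1 of 29 and 0 of 35.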

How the data were processed

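Single-cell RNA was measured in 6 droplet libraries, an EYFP positive and an EYFP negative one in each of 3 runs. The deposited matrices hold raw UMI counts per gene and barcode, per the file headers. The submitters' processing notes name Cell Ranger 2.1.0 and GRCh38, the headers name software version 3.1.0, and all gene identifiers are mouse, of a build not given in the sources used here. The authors' barcode calls were taken as deposited, with no cell annotation used.

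Barcodes were filtered as stated above and gated by marker genes, with at least 3 markers of a class and no close second class. The class sums were tested in libraries with at least 10 barcodes of a class. Genes passing filterByExpr were scaled by TMM and fitted with edgeR 4.0.16 (R 4.3.3), with condition and EYFP status as terms. The adjusted p limit was 0.05, and the standard error is the absolute log2 fold change over the root of F. Tests of a difference between EYFP fractions, and of a class against the other non-acinar cells, used interaction terms. The edgeR step was also run on simulated counts with known fold changes. That simulation used a fixed dispersion and no differences between runs, and its results are not given here.

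Alternatives were DESeq2 1.42.0, its size factors, no filter, each library left out, EYFP fractions summed per run, a replicate block (limma 3.58.1, voom with duplicateCorrelation), stricter cells, no haemoglobin limit, Leiden clusters (scanpy 1.11.5), doublets removed (45 barcodes called by Scrublet, kept otherwise) and some gene groups removed. Leaving out lower copies of shared barcodes, Y-linked barcodes only, and shares outside the acinar gate were added after the data were seen. Shares were tested with SciPy 1.17.1 by exact permutation over libraries. Intervals are exact Clopper-Pearson at 95% and floors use 3 counts, and both cover counting error only.

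Genes were named by rule: per class up to 10 in each direction with the largest change among those past the test, of mean log2 CPM of at least 5 and without overlap between groups, otherwise the 5 of lowest p, plus called and up to 4 lowest-p members of 26 gene lists and a short list always eligible. The comparison, its members and the lists were chosen with earlier results of these data known. Lack of overlap in a named gene is therefore a description and no separate support. The share of all tested genes without overlap is not given here. Run numbers tie the EYFP fractions of a run but do not cross conditions, so the block is within condition. Promoter windows come from RefSeq, first listed start per symbol.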

Additional observations from a re-analysis of the deposited data

Results flagged for a closer look

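A value was singled out where 1 of the 4 homeostasis libraries stood far from the other 3 by Dixon's test at 95%, which chance does in about 1 of 20 groups. Ier2 in ductal cells reached 915 CPM in EYFP positive run 2, against 497 to 542.7 CPM in the other homeostasis libraries. Gadd45g in B cells stood at 62.6 CPM in the same library, against 18.88 to 23.33 CPM, and Xist in B cells at 479.93 CPM there, against 1408 to 1497 CPM. Ptprb in B cells stood at 260.11 CPM in EYFP positive run 1, against 20.87 to 45.77 CPM, and Spp1 in T cells at 397.16 CPM in that library, against 36.8 to 79.21 CPM.

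The effect of pancreatitis on Nupr1 in ductal cells differed between EYFP fractions by an interaction test (-3.4592 log2, adjusted p = 0.00197 in edgeR's quasi-likelihood test). It rests on EYFP negative run 3, where 7 of 10 ductal barcodes were lower copies of barcodes in the EYFP positive library.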

How the results depend on the processing

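DESeq2 called 47 genes in acinar, 6 in ductal, 8 in endothelial, 36 in B, 11 in T, 10 in myeloid, 10 in fibroblast and 222 in all non-acinar cells. For the difference between EYFP fractions it called 2 endothelial, 1 B, 1 T and 9 non-acinar genes, and for the class-specific part 14 endothelial, 5 B and 2 T genes. Its size factors in edgeR gave 9 acinar genes, and 28 in the B-specific part. With no low-count filter edgeR called 9 acinar, 39 ductal, 53 endothelial, 189 B, 86 T, 69 myeloid and 1513 non-acinar genes. Without that filter the difference between fractions gave 3 ductal, 5 endothelial, 1 B, 6 T and 248 non-acinar genes, and the class-specific part 35, 66, 186 and 243 in ductal, endothelial, B and T cells. Summing fractions per run gave 17 acinar, 50 endothelial, 166 B, 74 T, 68 myeloid and 1677 non-acinar genes. Leiden clusters gave 190 acinar, 23 ductal, 11 T and 15 myeloid genes. Without the haemoglobin limit there were 8 endothelial and 13 fibroblast genes, and without enzyme, haemoglobin and immunoglobulin genes 4 acinar and 1 myeloid. Y-linked barcodes of runs 2 and 3 gave 0 B and 20 endothelial genes. The cause of these moves was not tested.

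Leaving out 1 library gave 0 to 220 acinar, 7 to 38 ductal, 2 to 21 endothelial, 2 to 156 B, 7 to 56 T and 0 to 290 non-acinar genes. Shares, in points, ranged from 21.9 to 36.8 (acinar), -0.51 to 15.1 (B), 2.58 to 6.50 (NK), -1.24 to 0.78 (myeloid) and -1.54 to 0.13 (fibroblast). Stricter cells gave 18.3 (acinar), 5.68 (NK) and 0.32 (myeloid). Leiden clusters gave 6.27 (NK), -2.11 (plasma) and -2.13 (myeloid). Outside the acinar gate the differences were 17.5 (B), 9.23 (T), 7.07 (NK), 1.11 (myeloid) and 0.77 (fibroblast).

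With the replicate block 9 ductal (8 shared with the fit without it), 2 endothelial, 66 B (48 shared), 4 T and 0 non-acinar genes were called. Libraries of the same run deviated together in ductal (correlation 0.32) and endothelial cells (0.27) and hardly in B (0.056) and T cells (0.033). Leaving out 1 library, Nupr1 in ductal cells ranged from -0.35 (without EYFP negative run 3) to 3.12, and it was -0.43 with stricter cells and -0.35 without lower copies. In B cells Stmn1 ranged from -2.48 to 0.28 and Top2a from -3.21 to 0.37, both turning without EYFP negative run 3, and Hmgb2 (0.34) and Ddx3y (-0.71) turned among Y-linked barcodes.

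Fibroblast and myeloid fits had 1 residual degree of freedom, so leaving out a library and the block were not run there. The block could not be fitted for acinar cells, and stricter cells left too few acinar libraries. Few barcodes (19 myeloid, 23 ductal and 36 fibroblast in pancreatitis) limit these classes most.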

Other observations

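Clock-output genes separated the runs in endothelium as well as in fibroblasts, where Nr1d1 and Dbp fell. In endothelial cells 7 of 11 tested circadian genes were negative (median -2.07 beside -0.01 for all genes) and none passed. Nr1d1, a nuclear receptor that represses Arntl, measured 34.9, 179, 17.4 and 141 CPM in homeostasis and 0 and 6.56 CPM in pancreatitis (-5.53 ± 1.52, adjusted p = 0.454 in edgeR's quasi-likelihood test). Dbp measured 1.84, 175, 3.55 and 182 CPM against 2.5 and 0 CPM (-5.35 ± 2.36, adjusted p = 0.85). Dbp thus stood as low in run 1 as in pancreatitis and was high in run 2 alone, in both EYFP fractions. The labels give no time of day for any library.

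Mitochondrially encoded genes were on the lower side in pancreatitis in most classes. All 13 were negative in B (median -0.48, mt-Atp8 called lower), T (-0.39), ductal (-0.17) and fibroblast cells (-0.82), while 10 of 13 were positive in endothelial cells (0.15).

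Pancreatitis NK and innate lymphoid cells, too unevenly spread for a test of genes, carried Hspa1a or Hspa1b UMIs in 69.0% of 100 and 87.5% of 8 barcodes, against 0 of 10, 2 of 9 and 1 of 4 in homeostasis libraries.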
